A study of Macaca mulatta with 6 samples.

Results

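The comparison described here sets 2 female rhesus macaques given estrogen together with progesterone against 2 given placebo. Its members are the 4 arrays whose sample titles name those treatments, out of 6 in all, and all 52766 probe sets that measure transcripts and are not controls. Serotonin neurons were cut with a laser from sections of the dorsal raphe, a nucleus of the brain stem, and their total RNA was labelled with biotin. Each array came from 1 monkey, so the replicates are separate animals and n = 2 monkeys per group throughout. The tag Ovx in the placebo titles was taken to mean ovariectomized; titles of the hormone-treated animals give no such tag. Crystalline steroids were delivered by Silastic capsules under the skin for 1 month. Neither the steroid doses nor the number of captured cells per animal was given in the sources used here. The remaining 2 arrays came from monkeys given estrogen alone. They enter the normalization, the filter, the choice of probe set per gene and of the most abundant genes, and the estimate of the spread. A few of their values are set beside the others. In the text, 4 signals of a gene are given in the order placebo 1, placebo 2, estrogen+progesterone 1, estrogen+progesterone 2.

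Serotonin neurons make their transmitter from tryptophan, the first step being carried out by the hydroxylase TPH2, and load it into vesicles with the transporter SLC18A2. The dorsal raphe nucleus supplies serotonin fibers to much of the forebrain and is a known target of ovarian steroids. Estrogen and progesterone act through nuclear receptors that bind DNA and alter transcription, and also through receptors at membranes. Estrogen often raises the level of the progesterone receptor, which is why the hormones are commonly given in combination.

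The 4 arrays were of unequal quality, and the second array of the combined treatment was the weakest. Background was taken from 59 control probe sets with no target in monkey RNA. The 95th percentile of their signals is called the floor of that array, and it lay at signals of 216 and 221 with placebo and of 74.9 and 283 with both hormones. Of all transcript probe sets, 37.3% and 36.3% were above the floor on the placebo arrays. On estrogen+progesterone 1 that share was 49.6%, and on estrogen+progesterone 2 it was 28.7%. Probe sets with more than 10 times the floor numbered 384 and 451 with placebo, 4315 on estrogen+progesterone 1 and 122 on estrogen+progesterone 2. Across the 26383 probe sets tested, the arrays of the combined treatment correlated at r = 0.000477, against 0.518 for the placebo pair. Estrogen+progesterone 1 correlated at 0.913 and 0.842 with the arrays of estrogen alone, and at 0.473 and 0.517 with the placebo arrays. Estrogen+progesterone 2 correlated less with the placebo arrays, at 0.333 and 0.290. These r values are over probe sets of the same arrays and describe those arrays only.

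**Figure D1:**
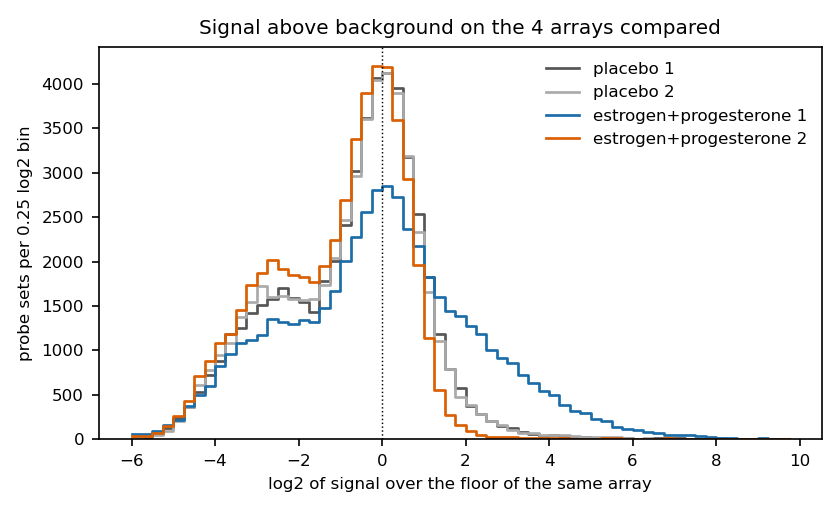
Number of transcript probe sets per 0.25 log2 bin (y axis) against the log2 of their signal over the floor of the same array (x axis), 1 line per array; the dotted line marks the floor. The line of estrogen+progesterone 1 reaches furthest to the right, with 4315 probe sets over 10 floors, and that of estrogen+progesterone 2 least far, with 122.

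Control probe sets along housekeeping transcripts also set the arrays apart. GAPDH, a glycolytic enzyme gene, gave signals of 74013, 109969, 34589 and 75228 at the 3′ end of its transcript. At the 5′ end it gave 31.2, 77.8, 1574 and 263. The 5′ probe set was thus above the floor on estrogen+progesterone 1 alone, where the 3′ signal was 22.0 times the 5′ signal. Beta-actin gave 12181, 5219, 18359 and 814 at the 3′ end and 23.3, 17.5, 541 and 40.3 at the 5′ end, again above the floor at the 5′ end on estrogen+progesterone 1 alone. The transcript of elongation factor 1 alpha did not follow this form, with 629, 781, 897 and 1032 at the 5′ end, above the floor on all 4 arrays. The GAPDH and beta-actin ends separate estrogen+progesterone 1 from its partner array and from placebo, and their part in the differences given here was not tested.

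**Figure D2:**
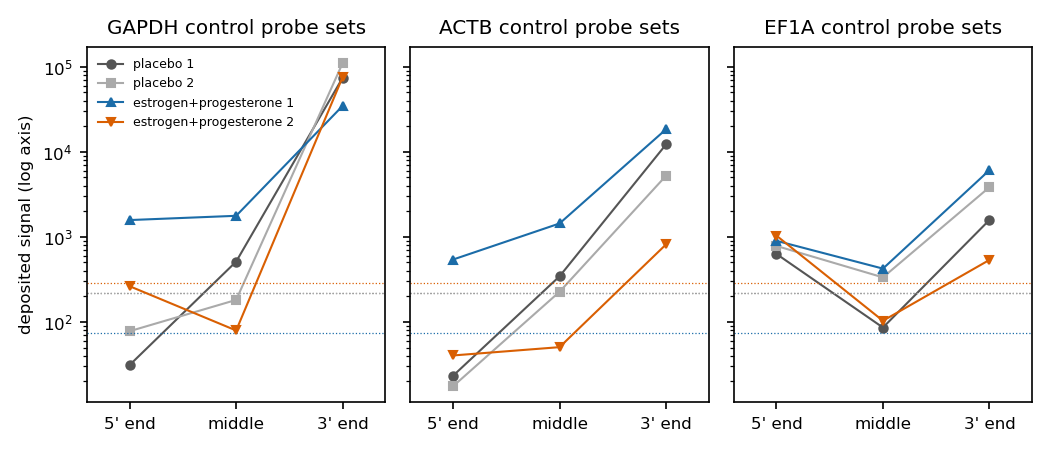
Deposited signals (log y axis) of control probe sets at the 5′ end, middle and 3′ end (x axis) of the transcripts of GAPDH, beta-actin (ACTB) and elongation factor 1 alpha (EF1A), 1 line per array; dotted lines are the floors of the same arrays. At the 5′ end of GAPDH and beta-actin only estrogen+progesterone 1 lies above its floor, with 1574 and 541, while EF1A is above the floor at the 5′ end on all 4 arrays.

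The captured material carried few signs of TPH2 on these arrays. TPH2 had signals of 126, 211, 12.5 and 243, below the floor on all 4. SLC18A2 had 183, 421, 374 and 47.9, above the floor on placebo 2 and estrogen+progesterone 1 only. FEV, a transcription factor that defines serotonin neurons, had 434, 261, 154 and 302, above the floor on all 4. Of 18 genes of serotonin neuron identity and transmission named on the array, 10, 8, 12 and 8 were above the floor in array order. General neuronal markers were above it for 9, 9, 9 and 8 of 10 genes.

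Markers of other cell types were above the floor too. Of 7 oligodendrocyte markers, 6, 7, 7 and 3 were above the floor, with summed signals of 35638, 50396, 59752 and 3078. Astrocyte markers were above it for 6, 7, 8 and 6 of 9 genes, and their signals summed to 22196, 24519, 79068 and 4165. Both sums were highest on estrogen+progesterone 1 and lowest on estrogen+progesterone 2. Microglial markers were above the floor for 9, 11, 11 and 4 of 14 genes, endothelial markers for 5, 6, 9 and 3 of 12, and markers of catecholamine neurons for 6, 4, 5 and 3 of 10. Genes typical of other organs were above it for 10, 9, 5 and 11 of 31. Of all transcript probe sets, 37.3%, 36.3%, 49.6% and 28.7% were above the floor in array order. Counts near those shares, as for several of these lists, do not by themselves show that a cell type was present. In captured samples such as these, fewer cells of a type cannot be told apart from less RNA per cell.

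The question asked of the whole array was which transcripts differed between the combined treatment and placebo. None passed the test. With limma, 0 of 26383 probe sets (0.0%) had an adjusted p under 0.05, and the smallest adjusted p was 0.992. An unadjusted p under 0.05 was reached by 870 probe sets (3.3%), where 1319 are expected by chance. Of these, 541 (2.05%) were higher and 329 (1.25%) lower with both hormones. The split depended on scaling, with 262 higher and 280 lower without quantile normalization, and 464 higher and 54 lower when arrays were centered on their medians. The median difference of all tested probe sets was -0.03 on the log2 scale as normalized, -0.16 without quantile normalization and 0.28 after median centering. Without estrogen+progesterone 2 the count of unadjusted p under 0.05 was 3088, without estrogen+progesterone 1 it was 6475, and without either array of estrogen alone it was 301 or 295. In each of these fits limma called 0 probe sets. A single comparison of 2 animals with 2 by an exact permutation test cannot give a two-sided p below 0.333, so none is reported.

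Log2 differences below are for both hormones minus placebo on quantile-normalized log2(signal + 16), with the moderated SE from limma, which had a median of 0.945. The offset of 16 makes changes of low signals look smaller. Values below the floor enter these differences as they stand, and a signal under 283 on estrogen+progesterone 2 is below its floor. Where several tested probe sets named a gene, the one with the highest mean stood for it, which gave 9781 genes. Of these, 1147 (11.7%) had both hormone arrays above both placebo arrays and 1239 (12.7%) had both below, together 2386 genes (24.4%) whose groups did not overlap. On deposited signals the groups were apart in the same direction for 690 and 794 of them. Genes with an unadjusted p under 0.05 numbered 233 (2.38%).

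The 2 animals given both hormones differed from placebo in unlike ways. The median gene stood at 0.31 relative to the placebo mean on estrogen+progesterone 1 and at -0.45 on its partner array. The sign was the same on both for 4497 genes (46.0%), and the correlation over genes of the paired differences, which share the placebo mean, was 0.0279. Both arrays were higher by at least 1 log2 unit for 521 genes (5.33%) and lower by as much for 241 (2.46%). A further 1058 genes (10.8%) stood apart by at least that size in opposite directions, 788 of them higher on estrogen+progesterone 1 and lower on estrogen+progesterone 2. The median distance between the arrays of one treatment was 1.55 log2 units for both hormones, 0.875 for placebo and 0.361 for estrogen alone.

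**Figure D3:**
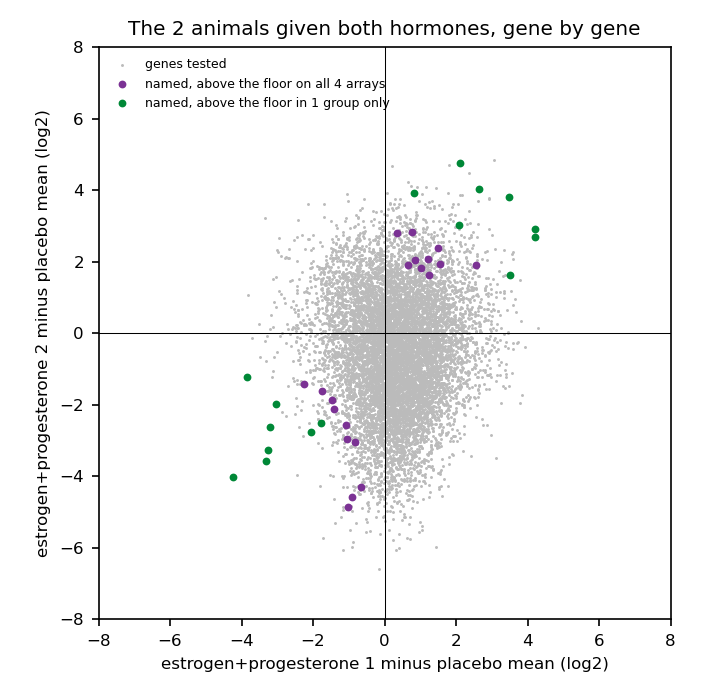
Log2 difference from the placebo mean on estrogen+progesterone 1 (x axis) and on estrogen+progesterone 2 (y axis), 1 point per tested gene, with the genes named by rule in colour. The cloud has no slope (r = 0.0279), and the coloured genes lie in the lower left and upper right quadrants because they were chosen for groups that do not overlap.

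How far a gene stood from placebo varied with its placebo level. Genes were placed in 4 bins of equal size by placebo level. In the lowest bin the median difference was 1.18 on estrogen+progesterone 1 and 0.49 on estrogen+progesterone 2. In the highest bin it was -0.10 and -1.67. The placebo level is part of each difference, so a gene placed high by chance on the placebo arrays is also placed low in the difference. Shares of all genes set beside gene lists below are not matched for placebo level. Estrogen+progesterone 1 lay inside the range of the placebo pair for 3360 genes (34.4%) and above it for 4004 (40.9%). Estrogen+progesterone 2 lay inside it for 2365 (24.2%) and below it for 4727 (48.3%).

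The most abundant transcripts show this in their signals. MBP, the myelin basic protein gene of oligodendrocytes, had 30551, 40944, 39069 and 1849.8. LIN7A, a synaptic scaffold gene, had 12424, 17896, 24550.1 and 1174, and RPS28, of the small ribosomal subunit, had 13125, 13201, 21687 and 1008. These were near or above placebo on estrogen+progesterone 1 and far below it on estrogen+progesterone 2. TMSB4X, which encodes the actin-binding thymosin beta 4, had 1556, 11208, 22296 and 637, and the placebo animals themselves differed widely. The same form was seen for SPDYA, a cell cycle regulator gene, with 10934, 16473, 23343 and 788, and for IDS, a lysosomal sulfatase gene, with 9734, 11099.7, 16622 and 1002. MT1E, a metallothionein gene, had 13700.2, 11340.3, 20394 and 2629.

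A smaller set of abundant probe sets stayed strong on estrogen+progesterone 2. RPL35A, of the large ribosomal subunit, had 39684, 60310.3, 16751 and 60427, so that estrogen+progesterone 1 was the low array on this probe set. Another RPL35A probe set had 7142, 6205, 18940 and 774, with estrogen+progesterone 1 highest and estrogen+progesterone 2 lowest. A further one had 287, 193, 82.5 and 400. ZNF652, a zinc finger gene, had 90788, 40072, 12666 and 44716, while its other probe set had 377, 393, 606 and 243. ACTG1, the gamma-actin gene, was lower on both hormone arrays, with 39274, 41194, 15855 and 5379, while its other probe set gave a log2 difference of 1.07. RALGAPA1, a regulator of small GTPases, had 32379, 43377, 24859 and 9711. ATP1B1, the beta subunit of the sodium pump, had 34329, 34792, 24493 and 6859.6. TIMM10, a chaperone of mitochondrial protein import, had 3315, 2628, 1576 and 6165, and WDR74, a ribosome assembly factor, had 3753, 2309, 739 and 5113; both were picked because they are among the strongest on estrogen+progesterone 2. The strongest probe sets of RPL35A, ZNF652, TIMM10 and WDR74 each had the lowest of their 4 signals on estrogen+progesterone 1. On estrogen+progesterone 2 their signals lay inside or above the placebo range.

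Genes above the floor on all 4 arrays give measured values on both sides. There were 2551, of which 194 (7.6%) were higher and 421 (16.5%) lower with both hormones without overlap. An unadjusted p under 0.05 was reached by 5 of them (0.196%): RPL12, MT2A, RPS6, SLC35E1 and the uncharacterized locus LOC701799. The difference was above 0 for 1014 (39.7%).

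Among those higher, RPL12, of the large ribosomal subunit, had signals of 319, 307, 3020.5 and 618. Its difference was 2.23 ± 0.82 (95% interval 0.40 to 4.06). RAB1A, a GTPase of transport between endoplasmic reticulum and Golgi, had 281, 246, 798 and 547 and a difference of 1.74 ± 0.81. Both hormone arrays were above both placebo arrays for each of these. EFNB2, a membrane ligand of Eph receptors, had 237, 226, 419 and 523, with 1.64 ± 0.82. COPS7A, a subunit of the COP9 signalosome, had 254, 248, 512 and 480.3, with 1.42 ± 0.81. In EFNB2 and COPS7A the arrays within each group were close to each other, and the placebo signals lay close to the floor. NBR1, a receptor for cargo of autophagy, had 271, 291, 416 and 758, with 1.80 ± 0.93. CCDC91, which takes part in transport from the Golgi, had 222, 501, 1312 and 744, with 1.94 ± 0.92.

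The other higher genes were TIMM29, of the inner membrane translocase of mitochondria, with 1.45 ± 0.88, the amino acid transporter gene SLC36A4 with 1.28 ± 0.85, PSMC3IP, a recombination cofactor, with 1.41 ± 0.94, and LRRC74B with 1.58 ± 0.98. LRRC74B had signals of 218, 257, 186 and 664, so that its deposited signals overlapped and only the normalized values did not. Other probe sets of RAB1A, SLC36A4 and PSMC3IP gave differences below 0. RPL12 also stood high with estrogen alone, at 3151 and 4109, over the same placebo arrays. Signals with estrogen alone were above both placebo signals for the other higher genes too, except LRRC74B, at 256 and 192. Limma gave an adjusted p of 0.992 for all of these genes.

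Among those lower, 4 had deposited signals that did not overlap either. AKAP17A, a splicing factor that anchors protein kinase A, had 679, 763, 249 and 345 and a difference of -1.68 ± 0.80. DEFB121, a defensin gene, had 1018, 923, 522 and 373, with -1.67 ± 0.80. SUPT6H, a histone chaperone of transcription elongation, had 2831, 1933, 1815 and 514, with -1.77 ± 0.83. In AKAP17A and DEFB121 both hormone arrays were clearly apart from placebo, while in SUPT6H estrogen+progesterone 1 was close to placebo 2. SLC35E1, a member of the nucleotide sugar transporter family, had 514, 478, 83.7 and 289, with -1.85 ± 0.82, and another of its probe sets stood at 2.20. With estrogen alone, AKAP17A had 320 and 349, DEFB121 384 and 321, and SLC35E1 135 and 170, all below both placebo signals. SUPT6H had 2325 and 1454 there, on either side of placebo 2.

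The remaining lower genes were separated by estrogen+progesterone 2. MT2A, a metallothionein that binds zinc and copper, had 7977, 13489, 9731 and 368, with -2.94 ± 1.19. RPS6, of the small ribosomal subunit, had 7084, 6139, 7433 and 336, with -2.74 ± 1.15. UQCRQ, a subunit of respiratory complex III, had 3815, 4765, 6088 and 307, with -2.48 ± 1.14. On estrogen+progesterone 1 these signals lay inside or above the placebo range, and the normalized values there were lower by 1.02, 0.91 and 0.65. ARF3, a GTPase of the Golgi, gave -2.01 ± 0.90, EIF3I, a translation initiation subunit, -1.93 ± 0.94, and SLC25A4, the ADP/ATP carrier of muscle and brain mitochondria, -1.83 ± 0.90. For all 10 genes limma gave an adjusted p of 0.992.

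**Figure D4:**
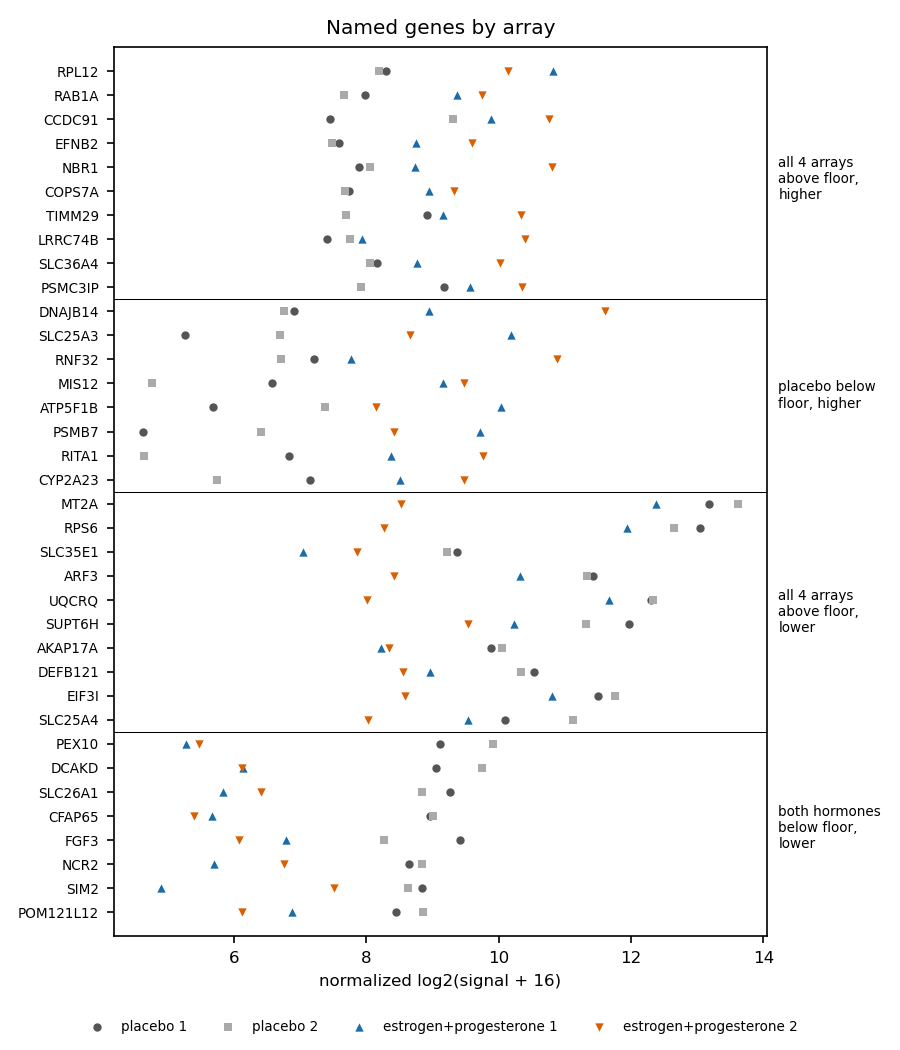
Normalized log2(signal + 16) (x axis) of the 36 genes named by rule (y axis), 1 symbol per array, in 4 blocks from top to bottom: all 4 arrays above the floor and higher, placebo below the floor, all 4 above and lower, both hormone arrays below the floor. The groups do not overlap by choice, and in MT2A, RPS6 and UQCRQ the symbol of estrogen+progesterone 2 stands far to the left of the other 3.

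A second kind of difference is presence above the floor in 1 group only, where the dim group gives a bound. Both hormone arrays were above the floor and both placebo arrays below it for 338 genes (3.46%), and the reverse held for 111 (1.13%). A fold given as at least N sets the mean of the bright group against the higher of floor and measured value on each dim array, on normalized values, and makes no allowance for the spread between animals. Such a bound can rest on 1 array. For PIM1, GABRA4, SCN8A and PMS2 below, the normalized value of estrogen+progesterone 1 lay under both placebo floors, so estrogen+progesterone 2 alone sets the bound. For CACNA1D the normalized floor of estrogen+progesterone 2, 7.80, lay above both placebo values, and for PTPRC and FKBP5 above 1 of them. That array adds no separation from those placebo values.

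In the higher direction, DNAJB14, a chaperone of the endoplasmic reticulum membrane, had signals of 162, 145, 515 and 1026 and was higher by at least 7.25-fold. Its other probe sets gave log2 differences of 2.09 and 0.84, both less than this bound. SLC25A3, the mitochondrial phosphate carrier, had 35.8, 137, 1754 and 387 (at least 4.03-fold). MIS12, of the kinetochore, had 127, 18.1, 642 and 504 (at least 3.73-fold). ATP5F1B, which encodes a catalytic subunit of ATP synthase, had 54.8, 215, 1504 and 322 (at least 3.18-fold), and its other probe set gave a log2 difference of -1.50. PSMB7, of the proteasome core, had 14.1, 109, 1121 and 356 (at least 3.15-fold). SLC25A3, ATP5F1B and PSMB7 were strongest on estrogen+progesterone 1, and DNAJB14 on estrogen+progesterone 2. RITA1, an inhibitor of Notch signaling, had 154, 14.6, 287 and 549 (at least 3.14-fold). CYP2A23, a cytochrome P450 gene, had 189, 56.6, 330.1 and 505 (at least 2.99-fold). RNF32, a ring finger gene, had 195, 139, 158 and 781 (at least 3.76-fold), with overlap of the deposited signals and another probe set at -1.43.

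In the lower direction, PEX10, a ubiquitin ligase of peroxisome assembly, had 453, 703, 15.0 and 48.1 and was lower by at least 4.46-fold. SLC26A1, a sulfate and oxalate transporter, had 486, 400.0, 29.6 and 110.2 (at least 3.23-fold). CFAP65, a gene of sperm flagella, had 425, 432, 24.5 and 45.0 (at least 3.09-fold). In each of these the hormone signals were far below the placebo pair on both arrays. FGF3, a fibroblast growth factor, had 525, 315, 67.2 and 78.8 (at least 2.80-fold). DCAKD had 442, 635, 39.6 and 83.1 (at least 4.11-fold), with its other probe set at a log2 difference of -1.24. NCR2, a receptor of natural killer cells, had 370.2, 401, 25.4 and 152 (at least 2.61-fold). SIM2, a transcription factor, had 403, 366, 8.21 and 249 (at least 2.60-fold), so that the hormone arrays were far from each other. POM121L12 was lower by at least 2.45-fold. None of the 16 genes passed, each with an adjusted p of 0.992 from limma.

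These genes can be set beside the arrays of estrogen alone, which share no animal with either group. Of the 338 genes above the floor with both hormones and not with placebo, 277 were above it on both estrogen arrays as well, where floors were lower, at 29.99 and 51.6. These genes had passed a filter on the mean of all 6 arrays, which favours genes high with estrogen alone. Without the filter, 975 of 1434 such probe sets (68.0%) were above it on both estrogen arrays and 128 (8.93%) on neither. Of all transcript probe sets, 62.2% and 58.5% were above the floor on the estrogen arrays. The share of all tested genes above the floor on both estrogen arrays is not given here. The counts of overlap in either direction therefore have no matched background and are not read as more or fewer than usual. Among the 338 filtered genes, 4 were above it on neither: LIF, a cytokine gene, with 161, 111, 82.7 and 368, LGR5, a receptor for R-spondins, with 106, 96.1, 88.1 and 477, ENTPD8, an ectonucleotidase, with 115, 81.6, 116 and 375, and ZNF483. In LIF, LGR5 and ENTPD8 the signal of estrogen+progesterone 1 lay close to its floor. In the other direction, 65 of 111 genes above the floor with placebo alone of these groups were above it on both estrogen arrays and 7 on neither, among them SRCAP, a chromatin remodeler, with 404, 228, 60.7 and 115, and CA7, a carbonic anhydrase, with 339.98, 393, 40.9 and 225. Here the unfiltered probe sets gave 248 of 791 (31.4%) on both estrogen arrays and 243 (30.7%) on neither. The 11 genes above the floor on neither estrogen array follow from the filter and the floors of 6 arrays. The difference between treatments with and without progesterone was not tested here.

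Steroid receptors and genes known to respond to them were looked at whatever their values. ESR1, the estrogen receptor alpha gene, had 93.4, 27.6, 46.3 and 26.2, below the floor on all 4 arrays. ESR2, the beta receptor gene, had 169, 247, 53.7 and 20.6 and was above it on placebo 2 only. PGR, the nuclear progesterone receptor gene, had 134, 313, 21.4 and 351, above the floor on placebo 2 and estrogen+progesterone 2. None of these entered the test, because their means lay below the filter. PGRMC1, a membrane heme protein linked to progesterone, had 1984, 4756, 11202 and 539. It was highest on estrogen+progesterone 1 and lowest on estrogen+progesterone 2, and its mean difference of -0.75 became 0.14 with median centering. Its other probe sets stood at -1.23 and 0.60. PAQR7, a membrane progestin receptor, had 416, 437, 158 and 345, with a difference of -0.91 ± 0.82.

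FKBP5, a chaperone that dampens glucocorticoid receptor signaling, had 259, 422, 13.9 and 189 and was lower by at least 2.02-fold, without a test. PER1, a clock gene, had 141, 99.2, 193 and 332 and was higher by at least 1.61-fold, with a difference of 1.60 ± 0.81. TSC22D3, known as a glucocorticoid-induced leucine zipper, had 550.2, 546, 879 and 415, and its difference of -0.32 became 0.58 with median centering and 0.14 without quantile normalization. SGK1, a kinase induced by steroids, had 435, 413, 837 and 25.0, so that the hormone arrays stood on either side of placebo. GREB1, an estrogen-induced coregulator, had 314, 161, 838 and 127, and CA12, a carbonic anhydrase, had 84.7, 18.9, 99.9 and 277, above the floor on estrogen+progesterone 1 only. MAOA, a monoamine oxidase, had 238, 559.9, 527 and 367, and both hormone signals lay within the placebo range.

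Of 36 genes that progestins or glucocorticoids induce in many tissues, 22 were tested. Their median difference was -0.37, or 0.28 with median centering, against -0.10 for all genes, with 8 above 0 and 14 below. Of all genes, 4517 (46.2%) were above 0. By array it was 0.46 and -0.72. Groups did not overlap for 7 of the 22, 5 higher and 2 lower, against 11.7% and 12.7% of all genes. CDKN1A, the cell cycle inhibitor p21, had 133, 28.3, 157 and 432 and was higher by at least 1.96-fold (2.53 ± 0.92). ZBTB16, a transcriptional repressor induced by progestins, had 179, 66.3, 442 and 271, with 1.77 ± 0.87; the estrogen+progesterone 2 value lay below its floor. Of 28 estrogen-responsive genes, 15 were tested, with a median of -0.14, or 0.48 with median centering. PIM1, a survival kinase, had 66.2, 33.5, 84.1 and 316 and was higher by at least 1.11-fold (2.02 ± 0.84). CCND1, cyclin D1, had 503, 353, 438 and 139, with -1.21 ± 0.95, and CXCL12, a chemokine gene, had 561, 449, 196 and 457, with -0.74 ± 0.85. None of these members passed, with an adjusted p of 0.992 from limma.

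Of 24 genes of serotonin neuron identity and transmission, 11 were tested, with a median of 0.19 and array medians of 0.42 and -0.22; 6 were above 0 and 5 below. INSM1, a zinc finger factor of monoamine neuron differentiation, had 228, 119.6, 327 and 326, with 1.33 ± 0.83. PTS, an enzyme that makes the cofactor of tryptophan hydroxylase, had 90.02, 185, 305 and 207, with 1.16 ± 0.87. Both were higher without overlap, though placebo values lay on both sides of the floor for INSM1, and PTS was above it on estrogen+progesterone 1 alone. GATA2, a factor that precedes FEV in development, had 532, 259, 245 and 223, with -0.85 ± 0.91. The SLC18A2 difference was -0.97 ± 1.17, with 0.61 on estrogen+progesterone 1 and -2.55 on estrogen+progesterone 2.

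Across lists the medians of the hormone arrays usually lay on either side of 0. Of 34 lists with 5 or more tested genes, 27 had a median above 0 on estrogen+progesterone 1 and below 0 on estrogen+progesterone 2. The mean of both arrays gave 27 medians below 0, but after median centering 33 of the 34 were above 0, and without estrogen+progesterone 2 the number above 0 was 30. Directions of whole lists therefore rest on the scaling and on 1 array. GABA and glycine transmission and neuropeptides had array medians above 0 on both arrays. In 4 lists both array medians were below 0: pro-apoptotic genes, cholinergic transmission, synaptic vesicle release and general neuronal markers.

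**Figure D5:**
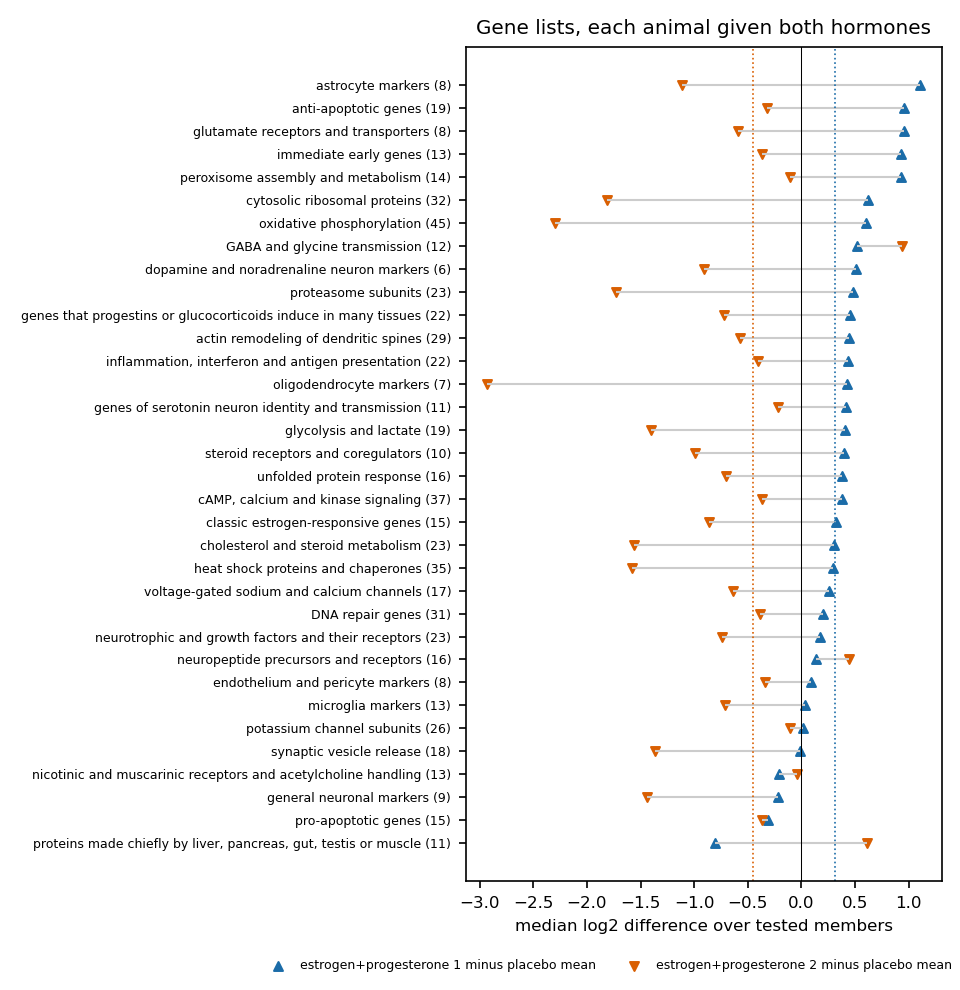
Median log2 difference from the placebo mean over the tested members of each of 34 gene lists (x axis; the number tested is in brackets on the y axis), with 1 symbol for each array of the combined treatment; dotted lines are the medians of all genes, 0.31 and -0.45. In 27 lists estrogen+progesterone 1 lies to the right of 0 and estrogen+progesterone 2 to the left; with median centering 33 of the 34 lists have a mean difference above 0.

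Genes of energy metabolism stood far apart between the hormone arrays. Of 66 genes of oxidative phosphorylation, 45 were tested, and their array medians were 0.60 and -2.30. The mean difference had a median of -0.91, which became 0.29 with median centering, with 14 genes above 0 and 31 below. Groups did not overlap for 8 of the 45, against 24.4% of all genes. NDUFA6, of respiratory complex I, had 2617, 4303, 6018 and 253, with -2.43 ± 1.22. NDUFS7, of the same complex, had 2656, 1294, 2767 and 339.9, with -1.85 ± 0.99. Glycolytic and related genes gave 0.40 and -1.41 by array over 19 tested. ALDOA, an aldolase, had 3095, 924, 3332 and 172, with -2.28 ± 1.31. PDK2, a kinase that inhibits pyruvate dehydrogenase, went the other way with 177, 19.6, 268 and 269 and a difference of 2.07 ± 0.95; on estrogen+progesterone 2 it was below the floor. Peroxisomal genes had a median of 0.16 over 14 tested, -0.01 without quantile normalization, and PXMP2, a peroxisomal membrane channel, had 178, 175, 371 and 272, with 1.13 ± 0.82, in contrast to PEX10.

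Genes of cholesterol and steroid synthesis were tested for 23 of 37 members. The median was -0.51, or 0.20 with median centering, with 5 above 0 and 18 below, and array medians of 0.30 and -1.56. CYP46A1, the neuronal hydroxylase that clears cholesterol from the brain, had 1142, 508, 1008 and 109, with -2.01 ± 1.12. SCAP, the escort of sterol sensing, had 514, 639, 759 and 109, with -1.69 ± 1.04. FDFT1, squalene synthase, had 1185, 1719, 2862 and 313, with -1.56 ± 1.01, and EBP, a sterol isomerase, 714, 596, 569 and 258, with -1.48 ± 0.87. In all 4 genes estrogen+progesterone 2 was the low array. Other probe sets of FDFT1 and EBP gave 1.90 and 0.08.

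Protein synthesis and upkeep followed the same form. Cytosolic ribosomal proteins, 32 tested of 76, had array medians of 0.62 and -1.82, with 9 mean differences above 0 and 23 below; the median of -0.56 became 0.31 with median centering. RPL12 and RPS6, given above, lay at opposite ends. Proteasome genes, 23 tested of 34, gave 0.48 and -1.73 by array and a median of -0.91, or 0.27 with median centering, with 4 higher and 4 lower without overlap, against 11.7% and 12.7% of all genes. PSMC5, of the proteasome cap, had 1161, 973, 1075 and 19.1, with -3.37 ± 1.39. PSMD13, of the cap as well, had 2335, 1726, 2482 and 400.4, with -1.78 ± 0.90. PSMC6 had 49.1, 154, 334 and 233, with 1.75 ± 0.88. Heat shock proteins and chaperones, 35 tested of 49, gave 0.29 and -1.58, with HSPA12A at -2.25 ± 1.005 and the mitochondrial chaperone TRAP1 at 1.62 ± 0.87. PSMC6 and TRAP1 were above the floor on estrogen+progesterone 1 alone of the 4 arrays. Subunits of the proteasome thus differed in sign. The deposited signals of PSMC5 and PSMD13 lay within or above the placebo range on estrogen+progesterone 1. Their normalized values there were below both placebo arrays, at -0.89 and -0.87 from the placebo mean.

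The unfolded protein response list, 16 tested of 26, had a median of -0.08, or 0.44 with median centering. EIF2AK3, the kinase PERK that slows translation under stress, had 22.7, 15.1, 223 and 199, with 2.83 ± 0.83; estrogen+progesterone 2 was below its floor. ATF6, a membrane-bound sensor of the same response, had 157, 219, 213 and 534 and was higher by at least 2.74-fold (1.73 ± 0.88). Its deposited signals overlapped, with estrogen+progesterone 1 under placebo 2, and only the normalized values did not. ATF4, the factor translated downstream of PERK, had 1308, 1479, 1594 and 453, with -1.32 ± 0.84. The sensors and the downstream factor thus differed in sign, none past the test.

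Genes of cell death and survival were of both signs. Pro-apoptotic genes, 15 tested of 36, had a median of -0.34, or 0.17 with median centering, with 4 above 0 and 11 below and array medians of -0.31 and -0.37. DIABLO, released from mitochondria in apoptosis, had 543, 571, 372 and 109, with -1.996 ± 0.95. CASP8, the initiator caspase of death receptors, had 207, 487, 48.0 and 222, with -1.45 ± 0.95, and HTRA2, a mitochondrial protease, had 34.0, 62.8, 277 and 70.4, with 1.61 ± 0.97. Anti-apoptotic genes, 19 tested of 29, had a median of 0.28, with 11 above 0 and array medians of 0.96 and -0.32. IGF1R, the receptor of insulin-like growth factor, had 115, 19.1, 404 and 303 and was higher by at least 1.90-fold (2.72 ± 0.93). CFLAR, an inhibitor of caspase 8, had 129, 58.3, 267 and 265, with 1.79 ± 0.84. Of the 4 arrays, HTRA2 and CFLAR were above the floor on estrogen+progesterone 1 only, and CASP8 on placebo 2 only. Groups did not overlap for 4 of 15 pro-apoptotic and 7 of 19 anti-apoptotic genes, against 24.4% of all genes.

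DNA repair genes, 31 tested of 63, had a median of -0.35, or 0.18 with median centering. PMS2, of mismatch repair, had 34.2, 43.7, 105 and 342 and was higher by at least 1.32-fold (2.46 ± 0.83). XRCC5, which binds broken DNA ends, had 426, 647, 389 and 65.0, with -2.11 ± 1.05. MUTYH, a glycosylase of base excision repair, had 413, 389, 234 and 49.8, with -1.99 ± 0.997, and ERCC3, a helicase of nucleotide excision repair, had 163, 91.6, 272 and 264, with 1.41 ± 0.83. Repair genes of both signs were thus found, and adjusted p from limma was 0.992 for each.

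Genes of GABA and glycine transmission had array medians of 0.52 and 0.94 over 12 tested of 29. Its median was 0.46, or 0.47 without quantile normalization and 0.92 with median centering, with 9 above 0 and 3 below, and 5 were higher and 0 lower without overlap, against 11.7% and 12.7% of all genes. GABRA2, the alpha 2 subunit of the GABA-A receptor, had 55.6, 20.2, 354 and 165, with 2.45 ± 0.92. GABRA4, the alpha 4 subunit, had 34.0, 70.4, 76.9 and 396 and was higher by at least 1.34-fold (2.25 ± 0.91). GAD2, an enzyme of GABA synthesis, had 168, 208, 292 and 469.9 and was higher by at least 2.65-fold (1.68 ± 0.90), while its other probe set stood at -0.09. GAD1, the second such enzyme, had 728, 1267, 2561 and 16.1, with -2.77 ± 1.58, and the other probe set of this gene stood at 0.79. Both receptor subunits lay under the placebo floors, and GABRA2 under that of estrogen+progesterone 2 as well, whereas GAD1 was split between the hormone arrays. Serotonin neurons and neighbouring cells as the source of these transcripts cannot be told apart.

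Genes of cholinergic transmission, 13 tested of 24, had a median of -0.21, or 0.23 with median centering. CHRNA3, a nicotinic receptor subunit, had 322, 391, 44.2 and 56.9 and was lower by at least 2.29-fold (-2.58 ± 0.82). CHRNB2, another subunit, had 322, 357, 30.8 and 207 and was lower by at least 2.13-fold (-1.92 ± 0.89). Both were below the floor on both hormone arrays and apart from placebo on each. Of glutamate receptors and transporters only 8 of 32 were tested, with a median of -0.10, or 0.23 with median centering, and 4 above and 4 below 0. Without overlap, 1 was higher and 3 were lower, against 11.7% and 12.7% of all genes. GRIA4, an AMPA receptor subunit, had 283, 456, 1138 and 491, with 1.003 ± 0.84. The kainate receptor subunit genes were on the other side, GRIK1 with 349, 398, 289.5 and 180.3 (-0.99 ± 0.86) and GRIK2 with 312, 202, 66.9 and 213 (-0.75 ± 0.83). SLC1A2, the glutamate transporter of astrocytes, had 1947, 46.7, 9274 and 591, with 2.64 ± 1.65, and its placebo animals were far apart; without placebo 2 the difference was -0.35.

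Potassium channel genes, 26 tested of 53, had a median of -0.26, or 0.03 with median centering, with array medians of 0.01 and -0.11. KCND2, a channel of the A-type current, had 323, 187, 14.3 and 68.4, with -2.16 ± 0.92. KCNC4, of the Kv3 family, had 925, 485, 401 and 88.4, with -2.37 ± 1.01. KCNIP3, a calcium-binding partner of A-type channels, had 50.6, 272, 369 and 365, with 1.81 ± 0.95. Of the sodium and calcium channels, SCN8A had 92.4, 12.5, 103 and 432 and was higher by at least 1.65-fold (2.76 ± 0.96), and CACNA1D had 252, 252, 15.2 and 214 and was lower by at least 1.28-fold (-1.45 ± 0.91). The pore-forming KCND2 and its partner KCNIP3 stood on opposite sides, but KCND2 was above the floor on placebo 1 only. KCNIP3 was below it on placebo 1.

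Neuropeptide genes, 16 tested of 37, had a median of 0.31, which was -0.07 without quantile normalization, with 9 above 0 and 7 below. UCN, the stress peptide urocortin, had 191, 23.2, 209.8 and 384 and was higher by at least 1.91-fold (2.30 ± 1.01). NPY, neuropeptide Y, had 237, 496, 348 and 35.1, with -1.58 ± 1.22. PENK, the enkephalin precursor, had 391, 1110.0, 2836 and 7.07, with -2.16 ± 1.71. PENK showed one of the widest gaps between the hormone arrays, 1.06 against -5.39 from the placebo mean.

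In cAMP, calcium and kinase signaling, 37 of 57 genes were tested, with a median of -0.04, which was 0.05 without quantile normalization and 0.50 with median centering, and 7 were higher and 3 lower without overlap, against 11.7% and 12.7% of all genes. ATF2, a transcription factor phosphorylated by stress kinases, had 73.6, 21.5, 280.0 and 459 and was higher by at least 2.54-fold (3.34 ± 0.85). GSK3B, a kinase of Wnt and insulin signaling, had 76.6, 23.3, 453 and 196, with 2.49 ± 0.93. MAP2K4, an activator of JNK, had 319, 532, 169 and 40.6, with -2.30 ± 1.04. Immediate early genes, 13 tested of 26, included JUNB with 595, 295, 164 and 184 and a difference of -1.46 ± 0.90. NR4A1, a nuclear receptor of the same class of rapid response, had 42.3, 201, 119 and 305 and was higher by at least 1.24-fold (1.39 ± 0.91). Here too the deposited signals overlapped and only the normalized values did not.

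Neurotrophic factors and receptors, 23 tested of 43, had a median of -0.69, or 0.14 with median centering, with 7 above 0 and 16 below. GFRA4, a coreceptor of the RET kinase, had 470.1, 418, 148 and 159, with -1.81 ± 0.85. NGFR, the low-affinity neurotrophin receptor, had 95.9, 40.6, 120.3 and 218, with 1.54 ± 0.82. The hormone arrays were alike in GFRA4, although estrogen+progesterone 1 stood above its lower floor there.

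Synaptic vesicle genes, 18 tested of 38, had a median of -0.54, or 0.24 with median centering, with 4 above 0 and 14 below, and 6 were lower and 1 higher without overlap, against 12.7% and 11.7% of all genes. RAB3A, a GTPase of vesicle release, had 1158, 613, 851 and 69.0, with -2.52 ± 1.15. DNM1, dynamin 1 of vesicle retrieval, had 1152, 767, 1338 and 263, with -1.61 ± 0.96, and NAPA, which helps take apart SNARE complexes, had 225, 44.6, 248 and 359, with 1.85 ± 0.95. RAB3A and DNM1 were below the floor on estrogen+progesterone 2. Genes of dendritic spines and actin, 29 tested of 41, had a median of -0.07, or 0.65 with median centering. CAPZA2, an actin capping subunit, had 19.2, 13.7, 273 and 179.9, with 2.93 ± 0.85, and estrogen+progesterone 2 was below its floor. WASF1, which starts actin branching, had 172, 354, 611 and 426, with 1.26 ± 0.88.

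The marker lists of cell types varied with the array. Oligodendrocyte markers were below 0 for 7 of 7 tested genes, with a median of -1.15, or 0.00 with median centering, and array medians of 0.43 and -2.93. SOX10, a factor of that lineage, had 597, 554, 612 and 62.2, with -2.12 ± 1.09. Astrocyte markers gave 1.11 and -1.12 by array over 8 tested genes, with S100B at 5914, 9119, 16817 and 213. Neuronal markers gave -0.22 and -1.44 over 9 tested, with UCHL1, a ubiquitin hydrolase abundant in neurons, at 2386, 4010.2, 6216 and 324, and NEFH, the heavy neurofilament, at 3889, 4079.9, 7302 and 769. All 4 of these genes had their lowest signal on estrogen+progesterone 2. Microglial genes had a median of -0.26, or 0.30 with median centering, over 13 tested. PTPRC, the leukocyte marker CD45, had 429, 259.7, 11.02 and 259 and was lower by at least 2.03-fold, though placebo 2 and estrogen+progesterone 2 were nearly equal. AIF1, also of microglia, had 316, 264, 64.2 and 115 and was lower by at least 1.61-fold, and P2RY12, a purine receptor of resting microglia, had 133, 252, 1519 and 171. Endothelial markers had a median of -0.09, or 0.08 with median centering, with 4 above and 4 below 0. SLC2A1, the glucose transporter of the blood-brain barrier, had 812, 950.1, 1269 and 252, with -1.59 ± 0.95. VWF, von Willebrand factor, had 69.6, 52.6, 205 and 73.5, with 1.23 ± 0.92, and was above the floor on estrogen+progesterone 1 alone of the 4. TEK, the angiopoietin receptor, had 255, 485, 363 and 109.9, with -0.99 ± 0.998, and ENG, endoglin, had 283, 407, 159.7 and 597, with 0.48 ± 0.96, which became -0.12 without quantile normalization. The part of these cell types in the other differences was not tested.

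Where a gene had more than 1 tested probe set, the probe sets often disagreed. For 3276 genes the 2 strongest could be compared, and their differences had the same sign for 1691 (51.6%), with r = 0.042 over genes. On estrogen+progesterone 1 the signs matched for 59.1% and on estrogen+progesterone 2 for 53.7%. A difference read from 1 probe set was therefore often not repeated in sign by another of the same gene on the same arrays.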

How the data were processed

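Total RNA of captured serotonin neurons of 6 monkeys was isolated with a Qiagen column and labelled with an Enzo biotin kit, per the labels' protocols. Sample titles gave the groups. The authors deposited a linear intensity for every probe set on every array, and these intensities had been brought to one level, a trimmed mean (2% off each end) near 200, as the values show. Software for summarization was not given in the sources used here. Scaling of this kind lifts background together with signal on a weak array. The number of arrays limits the precision.

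Gene names came from the platform annotation provided with the files, brought up to date by gene number. Of 52766 transcript probe sets, 24956 had 1 gene symbol, 361 several and 27449 none. The RefSeq gene table held 24616 of those with 1 symbol, and only such probe sets were named. No genomic positions are printed, since the annotation names no build.

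After adding 16, intensities were put on the log2 scale and quantile normalized, since medians of the arrays were more than 0.1 apart. The filter kept probe sets whose mean over the 6 arrays reached the 50th percentile. Limma 3.58.1 (R 4.3.3) fitted 1 mean for each group to the 6 arrays, with 3 residual degrees of freedom and moderated two-sided tests. Adjusted p are Benjamini-Hochberg over everything tested, at 0.05. The script was tested on simulated data.

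Genes were named by rule, uncharacterized loci aside. It took, in each direction, the 10 smallest unadjusted p among genes above the floor on all 4 arrays whose groups do not overlap and differ by at least 1, and the 8 largest bounds. It added the 12 genes with the highest mean, up to 4 members per list by smallest p, and 14 genes whatever their values. WDR74, TIMM10, LOC701799 and the genes set beside estrogen alone were chosen after their values were seen. The comparison, the 35 lists and the rule were chosen with earlier results of these data known. In the erythrocyte list 2 genes were tested, both below 0, and it is not among the 34 lists described.

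Alternatives varied the offset, normalization, filter, arrays in the fit, probe set, prior and weights, and added a replicate block. Deviations of same-numbered animals from their group means correlated at -0.0633 between placebo and the combined treatment. Between placebo and estrogen alone it was -0.0318, and between estrogen alone and the combined treatment 0.0822. These values cannot decide whether the numbers pair the animals, since only 28.7% of probe sets were above the floor on estrogen+progesterone 2.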

Additional observations from a re-analysis of the deposited data

How the results depend on the processing

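Limma called 0 probe sets under every setting tried, and its smallest adjusted p lay between 0.0800 (without estrogen+progesterone replicate 1) and 0.99999. The count with unadjusted p under 0.05, 870 as reported, was 542 without quantile normalization, 518 with median centering, 2526 of 52766 without a filter, 256 of 13192 with a filter at the 75th percentile, 79 of 5740 above the floor on all 4 arrays, 274 with the 4 arrays of this comparison alone and 244 with array weights. Leaving out 1 array gave 295 to 6475, with an arm of 1 animal assumed to vary like the others. With the replicate block it was 808, and the block changed no call. The labels name no link between same-numbered animals. Of 133 named genes with a tested difference, 80 kept their sign in every setting tried and 53 did not, 35 quoted with an SE and 18 given mainly by signals (the 12 most abundant, FEV, MAOA, PGRMC1, TSC22D3, SGK1 and GREB1). The cause of these reversals was not tested. Another probe set of the gene gave -0.14 for RAB1A, -0.0657 for SLC36A4, -0.29, -0.22 and -1.25 for PSMC3IP, -1.43 for RNF32, -1.50 for ATP5F1B, 2.20 for SLC35E1, 0.58 and 1.12 for ARF3, 0.51 for SUPT6H, 0.17 for AKAP17A, 0.54 for SLC25A4, 1.23 for SLC18A2, -1.21 for CA12, 0.0849 for EBP, 1.90 for FDFT1, 0.11 for NDUFA6, 0.58 for NDUFS7, 0.62 for ALDOA, -0.14 for HTRA2, -0.0598 for IGF1R, 0.26 for XRCC5, -1.03 for ERCC3, -0.0912 for GAD2, 0.79 for GAD1, 0.15 for KCNC4, -0.36 for NAPA, 0.47 for SOX10, 0.18 for PTPRC, 0.87 for AIF1, 0.9996 for TEK and -0.64 for ENG. ENG stood at -0.12 without quantile normalization. Leaving out 1 array gave ranges of -2.52 to 0.66 for SLC18A2, -5.60 to 0.25 for GAD1, -3.24 to 0.14 for NPY, -5.29 to 1.18 for PENK, -5.52 to 0.54 for S100B, -0.27 to 3.12 for P2RY12, -2.02 to 0.12 for TEK and -0.71 to 1.47 for ENG, each between the fits without the one and the other array of the combined treatment. For SLC1A2 it was -0.35 without placebo replicate 2 and 5.78 without placebo replicate 1. SLC18A2 was also above 0, at 0.03, without placebo replicate 2. Of the 34 list medians, 7 were above 0 as reported, 11 without quantile normalization, 33 with median centering and 3 without estrogen+progesterone replicate 1. Signal over background limits the comparison most on estrogen+progesterone 2, and a gene below its floor there has no measured difference.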
